A study of Mus musculus with 4 samples.

Results

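Myelin and mature oligodendrocyte genes were taken as 8 named genes, Mag, Mobp, Mal, Cldn11, Opalin, Tspan2, Trf and Gatm, out of the 383 genes that were counted cell by cell with MERFISH, an imaging method that reads barcoded fluorescent probes to place single RNA molecules of many genes in a tissue section. The members were listed by name, with no threshold on a measured value, and with earlier results of these data known. The sections were frozen coronal slices through the striatum of wild-type C57BL/6NTac mice, 2 from young mice at 2 months (Young 1 and Young 2) and 2 from aged mice at 18 months (Aged 1 and Aged 2). No genotype or drug separated the groups, the study used both sexes, and the sex of each section was not given. The study's methods call all replicates biological, and with 2 sections per age the tests rest on little replication.

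Oligodendrocytes wrap axons in myelin, a stack of compacted membrane that speeds conduction, and they arise from oligodendrocyte precursor cells (OPCs). Precursors carry the growth factor receptor Pdgfra. As they commit to differentiate they lose Pdgfra and pass through a stage marked by the receptor Gpr17, before the genes of mature myelin reach full level. Among the members, Mag encodes an adhesion protein of the innermost myelin membrane facing the axon, Mobp a small structural protein of compact myelin, and Mal a proteolipid that sorts membrane proteins to myelin. Cldn11 is the claudin of the tight junctions between myelin layers, Opalin a transmembrane sialylglycoprotein of the oligodendrocyte surface, and Tspan2 a tetraspanin of the same lineage. Trf encodes the iron carrier transferrin, and Gatm the first enzyme of creatine synthesis.

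The stretch before the start site is shown for the 4 members whose fitted levels fell most with age in precursor-like cells, so that the genes that moved together can be compared. Each line is the 250 bases before a transcript start, 5′ to 3′ on the gene's strand, from RefSeq on the GRCm38.p6 build. Capitals mark matches, on either strand, to 3 short motifs of lineage factors, the E-box CANNTG bound by basic helix-loop-helix factors, the SOX core ACAAAG or ACAATG, and the MYRF motif CTGGNAC. The Mag window, chr7:30914923-30915172 on the minus strand, belongs to its outermost listed start. The others are Mobp at chr9:120149492-120149741, Cldn11 at chr3:31149670-31149919 and Tspan2 at chr3:102734520-102734769, all on the plus strand.
Mag: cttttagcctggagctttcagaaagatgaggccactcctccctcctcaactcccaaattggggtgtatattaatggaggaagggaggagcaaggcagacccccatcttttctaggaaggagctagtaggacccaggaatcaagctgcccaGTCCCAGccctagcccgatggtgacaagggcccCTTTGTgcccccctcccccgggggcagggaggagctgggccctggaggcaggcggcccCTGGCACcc
Mobp: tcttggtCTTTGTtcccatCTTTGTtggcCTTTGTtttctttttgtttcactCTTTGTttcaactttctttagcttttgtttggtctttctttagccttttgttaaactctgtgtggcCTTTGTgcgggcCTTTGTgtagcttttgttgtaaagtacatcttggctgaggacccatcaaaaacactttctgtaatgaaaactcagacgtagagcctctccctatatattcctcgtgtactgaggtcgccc
Cldn11: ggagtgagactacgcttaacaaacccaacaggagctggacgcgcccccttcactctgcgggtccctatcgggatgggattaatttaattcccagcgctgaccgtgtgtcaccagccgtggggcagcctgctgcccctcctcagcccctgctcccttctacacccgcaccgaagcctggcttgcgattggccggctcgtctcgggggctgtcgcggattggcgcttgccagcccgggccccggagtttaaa
Tspan2: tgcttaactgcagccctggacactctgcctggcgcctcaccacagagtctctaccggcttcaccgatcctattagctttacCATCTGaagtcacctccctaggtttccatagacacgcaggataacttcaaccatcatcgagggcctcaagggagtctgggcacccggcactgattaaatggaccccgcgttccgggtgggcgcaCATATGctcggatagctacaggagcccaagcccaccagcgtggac
The Mobp window held 6 SOX matches, the Mag window 1 SOX and 2 MYRF matches, the Tspan2 window 2 E-boxes, and the Cldn11 window none of these letters. Mag and Tspan2 have further listed starts, whose windows are not shown. Those of Mag also held E-boxes, and that of Tspan2 also held a SOX match. Of the 32851 windows in the table, 66.2% held an E-box, 25.2% a SOX match and 16.1% a MYRF match. A match describes letters only, and its absence says nothing of the factor. The table held windows for 7 of the 8 members, the exception being Trf.

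Segmentation gave 320663 cells, of which 281824 had at least 10 genes and a volume of at least 50 µm³ and were kept. The median number of transcripts per kept cell was 400 in Young 1, 325 in Young 2, 215 in Aged 1 and 293 in Aged 2, so depth moved with age. No cell identifier was shared between sections. Cells were clustered without the 8 members and named from other markers, and such rebuilt names carry the ending "-like". The oligodendrocyte-like cluster had all 7 of its markers and the OPC-like cluster all 5 of its markers at more than 1.5-fold of the other cells. Cells with at least 3 detected markers of their own class and 3 of another were treated as mixed and left out, which removed 42.4% to 58.0% of oligodendrocyte-like and 75.4% to 82.4% of OPC-like cells in a section. The age change in OPC-like cells is therefore given below with and without that rule. Levels and fits by precursor stage are given only with mixed cells left out. Between 2630 and 5035 oligodendrocyte-like and between 305 and 434 OPC-like cells remained per section. The OPC-like cells that remained were shallow, with a median of 51 to 61 transcripts in a section, against 188 in the whole OPC-like cluster.

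All 8 members were highest in oligodendrocyte-like cells, in every section. Levels below are a gene's transcripts per 10000 counted transcripts of the class, and since probes differ between genes they are compared only within a gene. The distance to the next class differed between members. Mal stood 15.6-fold, Opalin and Trf 14.6-fold and Mobp 10.5-fold above the next class, against 4.25-fold for Tspan2, 4.21-fold for Gatm, 4.16-fold for Mag and 3.89-fold for Cldn11. These folds are a description of means over 4 sections, and for some members the distance depended on age. Mag averaged 461 in oligodendrocyte-like and 180 in OPC-like cells of the Young sections, against 409 and 29.6 in the Aged ones. Cldn11 averaged 604 and 234 in the Young sections, against 464 and 39.9 in the Aged ones.

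OPC-like cells came next for 6 of the 8 members. For Mag the mean over 4 sections was 435 ± 36.7 (SD) in oligodendrocyte-like cells, 105 ± 87.2 in OPC-like, 13.8 ± 1.25 in vascular-like, 5.82 ± 1.08 in microglia-like, 4.01 ± 0.757 in astrocyte-like, 1.84 ± 0.205 in neuron-like and 1.16 ± 0.116 in medium spiny neuron-like cells. The sections of neighbouring classes did not overlap anywhere in that order. The large spread in OPC-like cells followed age and is described with the age comparison. For Mobp the ranges of OPC-like and vascular-like cells overlapped, as did those of microglia-like and astrocyte-like cells and those of both neuronal classes. For Cldn11 and Tspan2 the upper 3 classes were separate, while microglia-like and astrocyte-like cells overlapped. For Opalin the ranges of OPC-like and vascular-like cells overlapped.

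Mal and Trf had another order. Mal was 46.9 ± 4.23 in vascular-like cells and 34.9 ± 9.94 in OPC-like cells, and these ranges overlapped. Trf was 45.6 ± 5.69 in microglia-like cells, above all sections of OPC-like cells at 27.2 ± 4.91, whose range overlapped that of vascular-like cells at 22.9 ± 4.0. Gatm stood at 595 ± 92.7 in oligodendrocyte-like, 141 ± 21.8 in OPC-like, 77.0 ± 5.45 in vascular-like and 44.8 ± 8.92 in microglia-like cells, and only the neuronal classes overlapped.

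**Figure D1:**
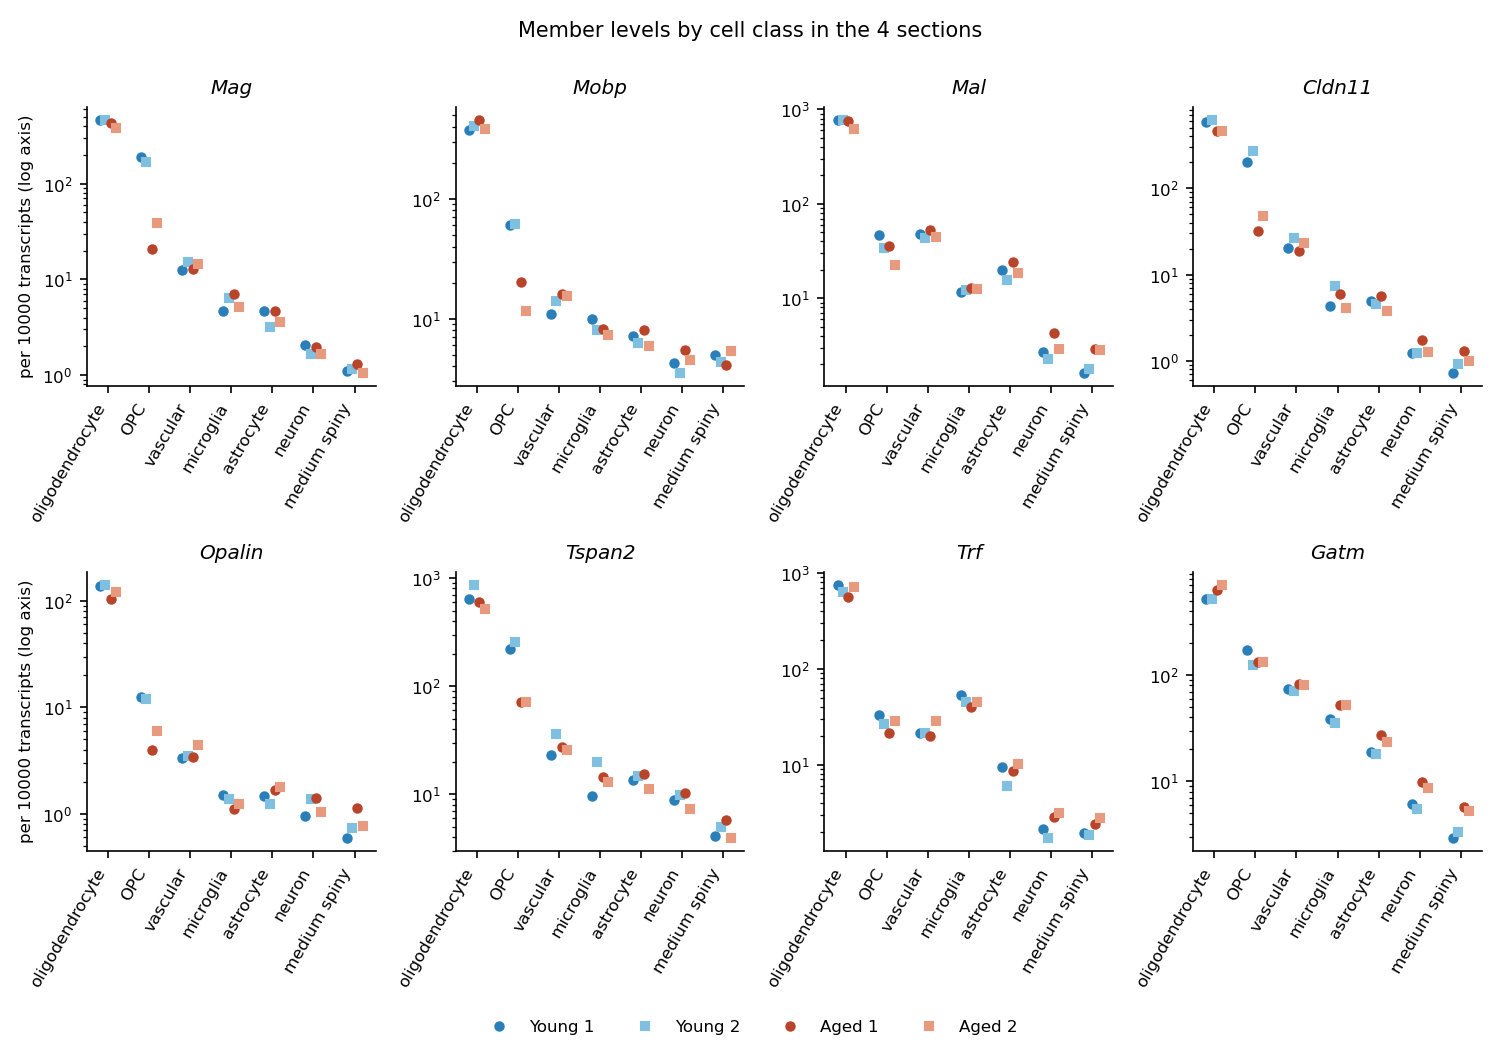
Transcripts of each member per 10000 counted transcripts (log axis) by cell class, 1 point per section with mixed cells left out. Oligodendrocyte-like cells are highest in every panel, and the Young and Aged points of Mag, Mobp, Cldn11, Tspan2 and Opalin separate in OPC-like cells.

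In the other glial and vascular classes the levels depended on place. White and grey matter were set by the share of oligodendrocyte-like cells among neighbours within 100 µm, at least 40% for white and at most 20% for grey. Mag averaged 120 ± 37.8 in vascular-like cells of white matter and 8.36 ± 1.44 in those of grey matter, and 17.3 ± 5.60 and 1.90 ± 0.59 in astrocyte-like cells. For every member the white matter mean was the higher in astrocyte-like, microglia-like and vascular-like cells. The part of neighbouring oligodendrocyte transcripts in these values was not tested. Outside OPC-like cells, the distinct levels in grey matter were those of Trf in microglia-like and of Gatm and Mal in vascular-like cells. Trf was 42.2 ± 6.70 in microglia-like against 4.66 ± 1.24 in astrocyte-like cells. Gatm and Mal were 69.1 ± 5.15 and 37.8 ± 5.09 in vascular-like cells.

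With mixed cells counted, oligodendrocyte-like cells held 63.1% to 78.8% of the transcripts of 7 members in a section. Gatm was the exception with 53.6% to 61.2%, with a further 11.7% to 16.3% of it in vascular-like cells and 12.8% to 14.8% in neuron-like cells. After each cell was thinned to 100 transcripts, 95.1% to 99.7% of oligodendrocyte-like cells carried at least 1 transcript of Mag, Mobp, Mal, Cldn11, Tspan2, Trf or Gatm. For Opalin the share was 66.4% in Young 1, 68.7% in Young 2, 59.3% in Aged 1 and 64.2% in Aged 2, beside 0.9% to 1.4% of neuron-like cells. Between 30% and 48.6% of oligodendrocyte-like cells had fewer than 100 transcripts and were left out of these shares. Unthinned, the Opalin shares were 71.3%, 69.0%, 55.9% and 63.7%.

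Across the 28 section-by-class values of log2(level + 1), each member correlated with the mean of the other 7 at r = 0.92 (Trf) to 0.98 (Mag). The other genes whose values were most like the members' mean were Cryab (r = 0.98), a small heat shock protein, Phldb1 (0.95), Grb14 (0.92), Il33 (0.92) and Tnni1 (0.91). The values share sections and depth, so these correlations are a description. Cryab, Phldb1 and Il33 were also among the oligodendrocyte markers used to name clusters and to set the mixed rule.

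Within OPC-like cells the members did not appear at the same stage. Cells were split by whether Pdgfra or Gpr17 had more transcripts. Where Pdgfra led, Mag was 27.5 and 21.5 per 10000 in the Young and 13.7 and 13.7 in the Aged sections. Where Gpr17 led, Mag was 313 and 323 in the Young and 41.6 and 97.9 in the Aged sections. In the Young sections the Gpr17-led cells therefore stood at 68.5% and 69.4% of the Mag level of oligodendrocyte-like cells of the same section, against 9.58% and 25.5% in the Aged ones.

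Cldn11, at 58.0% and 83.8% of its oligodendrocyte-like level, and Tspan2, at 47.9% and 49.6%, also stood well above their Pdgfra-led levels in the Gpr17-led cells of the Young sections. Mobp reached 23.6% and 26.3% there, and Opalin 11.4% and 14.0%. Mal, at 7.26% and 4.62%, and Trf, at 6.01% and 6.5%, were still low. In the Aged sections Mobp stood at 3.93% and 4.23%, Cldn11 at 17.1% and 28.8%, Tspan2 at 17.8% and 29.3%, and Mal and Trf again between 4.23% and 7.98%. By these ratios, Mag, Cldn11 and Tspan2 were the highest in Gpr17-led cells of the Young sections, Mal, Trf and Opalin were at most 14.0% there at both ages, and Mobp lay between them. Gatm was unlike either, at 25.0% to 38.2% of its oligodendrocyte-like level in Gpr17-led cells and 99.1 to 131 per 10000 in Pdgfra-led cells. Between 71 and 170 Gpr17-led cells per section stand behind these values. Counted at any depth, a minority of them had a detected Mag or Cldn11 transcript. At least 1 Mag transcript was found in 27.0% and 31.2% of Gpr17-led cells in Young 1 and Young 2 and in 10.1% and 14.1% in Aged 1 and Aged 2, without thinning, and at least 1 Cldn11 transcript in 31.4%, 31.8%, 7.07% and 14.1%. In the Young sections 22 of 137 and 30 of 170 Gpr17-led cells had 5 or more Mag transcripts. Between 72.3% and 80.8% of Gpr17-led cells in a section were too shallow for the thinning used above. The deeper ones numbered 38, 44, 19 and 14 in Young 1, Young 2, Aged 1 and Aged 2. After thinning, 59.4%, 70.1%, 8.89% and 39.2% of these deeper cells carried Mag. For Cldn11 the thinned shares were 62.5%, 72.4%, 12.7% and 33.9%.

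**Figure D2:**
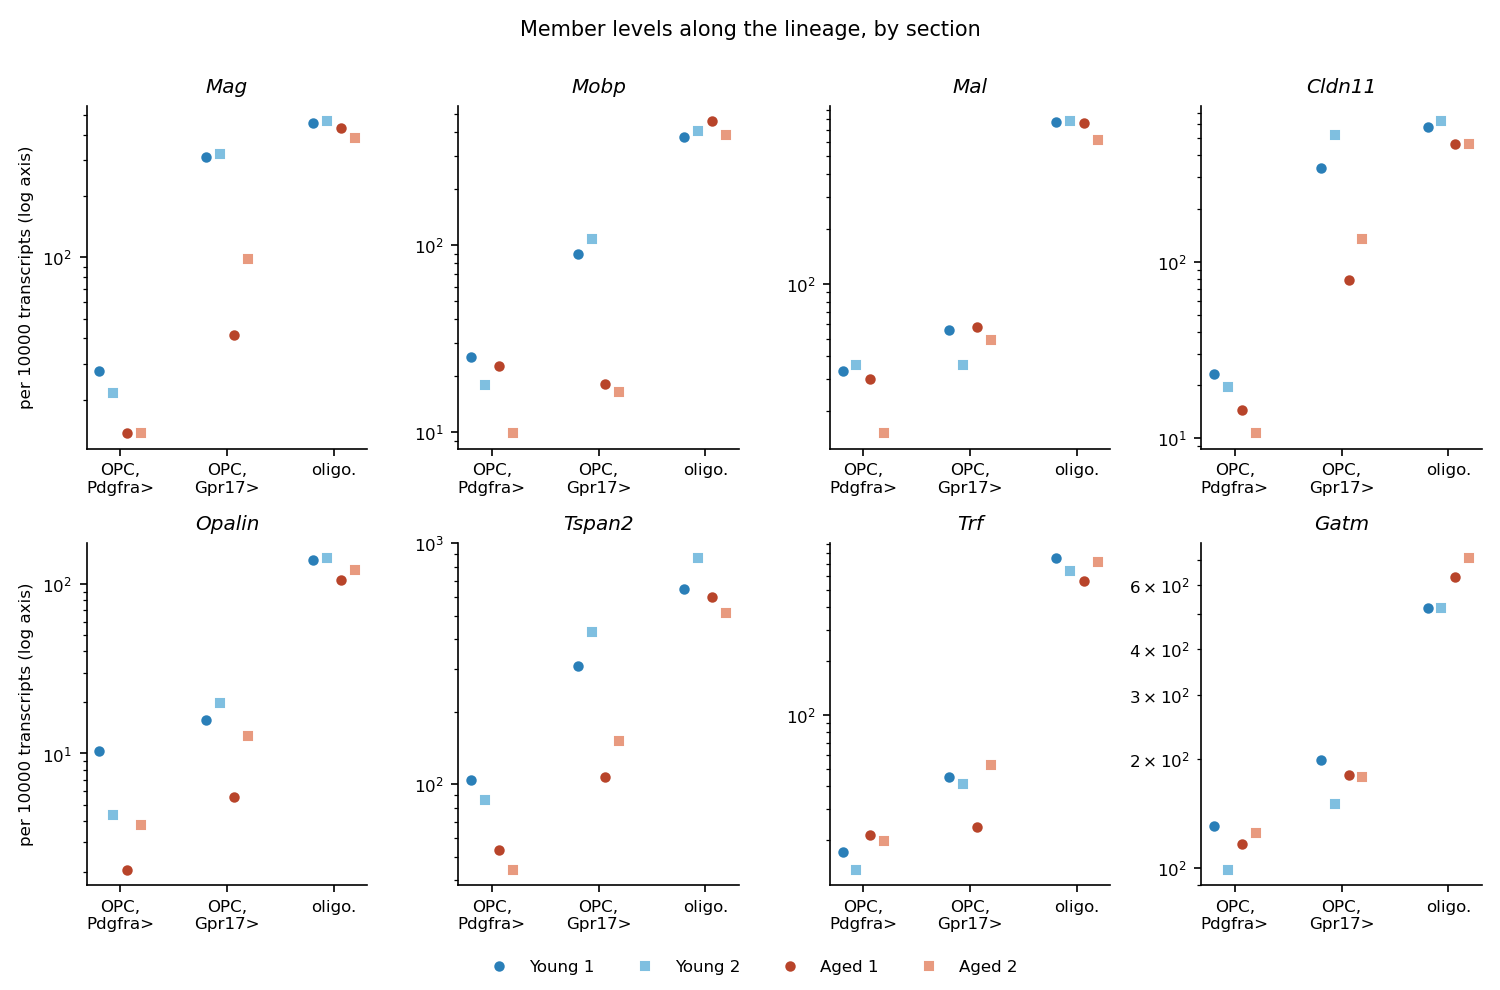
Level of each member per 10000 counted transcripts (log axis) in OPC-like cells with more Pdgfra than Gpr17 transcripts, OPC-like cells with more Gpr17 than Pdgfra transcripts, and oligodendrocyte-like cells, 1 point per section. Mixed cells are left out. Mag, Cldn11, Mobp, Tspan2 and Opalin in Gpr17-led cells are higher in both Young sections than in both Aged ones, while Mal and Trf are far below their oligodendrocyte-like level in all 4.

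The first age comparison asked whether mature cells changed their myelin genes between 2 and 18 months. Of the 8 members, 0 passed in oligodendrocyte-like cells by the edgeR quasi-likelihood test with Benjamini-Hochberg adjustment over 373 genes, of which 15 (4.02%) passed. At an unadjusted p under 0.05 there were 3 members among 70 of 373 genes. DESeq2 and limma also called 0. The median log2 fold change of the members was −0.28, beside −0.03 over all tested genes.

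Tspan2 was 646 and 867 per 10000 in the Young and 599 and 514 in the Aged sections, a log2 fold change of −0.56 ± 0.19 (SE; edgeR adjusted p = 0.109). Cldn11 was 583 and 624 in the Young and 463 and 466 in the Aged sections, −0.49 ± 0.16 (edgeR adjusted p = 0.11), and Opalin 138 and 142 against 105 and 121, −0.41 ± 0.17 (edgeR adjusted p = 0.194). Mag was 457 and 465 against 434 and 383, and Mal 770 and 779 against 761 and 614. Both had −0.28 (edgeR adjusted p = 0.375 and 0.377). Trf was 751 and 637 against 557 and 715, and Mobp 379 and 408 against 458 and 386. Gatm was the only member with a positive estimate, at 520 and 520 against 629 and 710 (+0.26 ± 0.17, edgeR adjusted p = 0.401), which turned to −0.24 with cell volume as the library size. That scaling moved the median of all genes by −0.51, and 45 of 373 genes then passed, among them 2 members, Tspan2 and Cldn11, with lower levels. Tspan2 rested on single sections, since it passed without Young 1 (−0.79, edgeR adjusted p = 0.0183) and stood at −0.29 without Young 2 (edgeR adjusted p = 0.601).

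In OPC-like cells the picture was different, and 5 of the 8 members fell with age. The edgeR test covered 225 genes, of which 21 (9.33%) passed in either direction and 16 (7.11%) were lower. The median log2 fold change of the members was −1.71, beside 0.01 over all tested genes.

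Mag was 189 and 170 per 10000 in the Young and 20.9 and 38.4 in the Aged sections (log2 fold change −2.80 ± 0.26, edgeR adjusted p = 9.21e-05). Cldn11 was 201 and 268 against 31.8 and 48.1 (−2.75 ± 0.24, edgeR adjusted p = 9.21e-05). Tspan2 was 219 and 256 against 71.1 and 71.7 (−1.92 ± 0.18, edgeR adjusted p = 9.21e-05). In each the Young sections lay far above the Aged ones.

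Mobp was 61.1 and 62.0 in the Young and 20.1 and 11.6 in the Aged sections (−2.13 ± 0.26, edgeR adjusted p = 0.000677). Opalin was 12.5 and 12.1 against 4.02 and 6.01 (−1.49 ± 0.35, edgeR adjusted p = 0.0218), and this call was lost when any of the 4 sections was left out (edgeR adjusted p = 0.0534 to 0.259). The other members did not pass. Mal was 46.9 and 33.9 against 36.2 and 22.7 (−0.63 ± 0.27, edgeR adjusted p = 0.223), Trf 33.2 and 26.3 against 21.3 and 28.2, and Gatm 173 and 125 against 134 and 132, the last pair both with edgeR adjusted p = 0.343.

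Few cells carried most of the Mag in these sums. Cells with at least 5 Mag transcripts numbered 25 and 34 at 2 months (8.20% and 7.83% of OPC-like cells) and 3 and 5 at 18 months (0.802% and 1.61%). They held 91.9% and 89.1% of the class's Mag transcripts in the Young and 53.8% and 59.0% in the Aged sections. Of these cells, 21 and 30 in the Young and 3 and 4 in the Aged sections also had at least 5 Cldn11 transcripts, and 22 and 30 against 2 and 4 had more Gpr17 than Pdgfra. They were also deeper than the rest in every section, with a median depth of 198 against 57 transcripts in Young 1, 236.5 against 53 in Young 2, 373 against 51 in Aged 1 and 289 against 51 in Aged 2. The cut of 5 transcripts was chosen after the values were seen.

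The share of Gpr17-led cells among those with a leading gene was also lower at 18 months, 51.9% and 46.2% in the Young and 31.6% and 27.6% in the Aged sections (95% Wilson intervals, counting error only, 45.9% to 57.9%, 41.2% to 51.3%, 26.7% to 37.0% and 22.5% to 33.4%). With mixed cells counted the shares were 41.7% and 38.8% against 32.0% and 20.1%. Within Gpr17-led cells alone, in a fit that called 19 of 158 genes, 4 members were still lower with age, Mobp at −2.84, Mag at −2.52, Cldn11 at −2.34 and Tspan2 at −1.85 on the log2 scale (edgeR adjusted p = 4.02e-07, 6.51e-06, 1.46e-05 and 0.000322). Within Pdgfra-led cells, where 6 of 186 genes were called, Tspan2 was the only member that passed, at −0.97 (edgeR adjusted p = 0.0263), while Mag had −0.83 (edgeR adjusted p = 0.317). These stage tests were added after seeing the data.

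The size of the precursor change depended on which cells were kept. With mixed cells included, where 18 of 374 genes were called, 3 of the 5 calls held, with Cldn11 at −1.18, Mag at −0.93 and Tspan2 at −0.55 (edgeR adjusted p = 4.16e-10, 3.66e-06 and 0.0142), while Mobp was at −0.17 and Opalin at −0.21 (edgeR adjusted p = 0.749 and 0.750). Mag then stood at 60.9 and 67.7 per 10000 in the Young and 35.9 and 33.0 in the Aged sections, and cells with at least 5 Mag transcripts made up 9.80% and 9.56% against 5.73% and 6.03%. When oligodendrocyte and OPC markers were not set against each other in the mixed rule, a choice made after seeing the data, 24 of 269 genes were called and 4 members fell, with Cldn11 at −1.60, Mag at −1.40, Tspan2 at −1.07 and Mobp at −0.68. Summed over its 7 genes, the oligodendrocyte marker list was 769 and 743 per 10000 in the Young and 705 and 633 in the Aged OPC-like cells. Of these genes 2 were higher and 5 lower in the Aged sections. The OPC list was 1438 and 1443 against 1535 and 1499, with 3 of 5 higher. The vascular list moved from 20.6 and 13.3 to 43.4 and 44.9, with 5 of 7 genes higher in the Aged sections and none at 0, and the astrocyte list from 190 and 181 to 228 and 272, with 6 of 7 higher. The neuron list was 359 and 375 against 476 and 402, with 6 of 7 higher. The medium spiny neuron list was 77.6 and 86.2 against 121 and 74.9, with 4 of 7 higher. The microglia list was 27.1 and 24.8 against 28.5 and 22.7, with 3 of 7 higher. The part of these in the member changes was not tested.

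**Figure D3:**
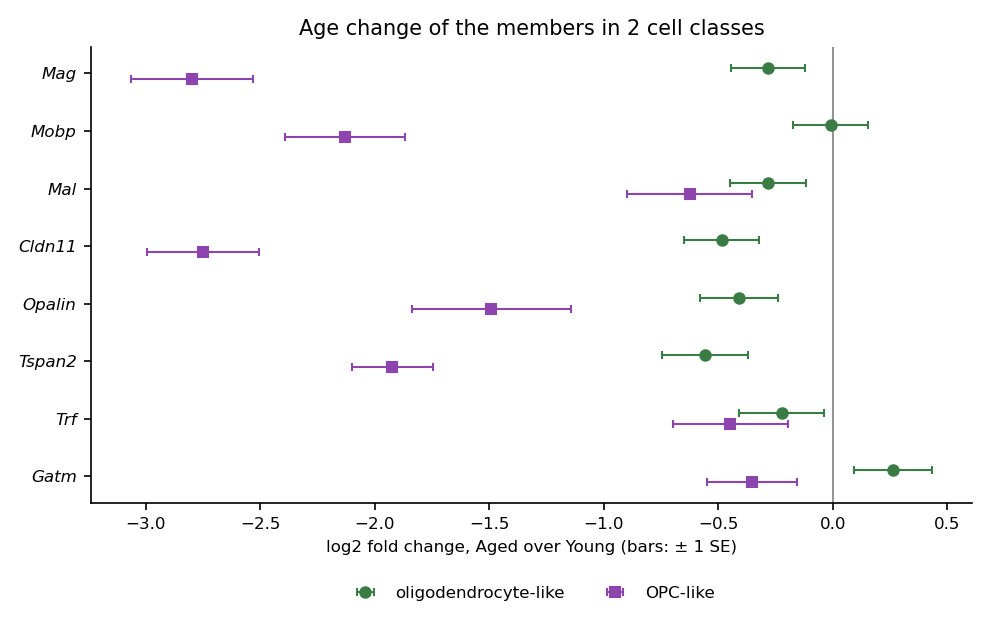
Fitted log2 fold change, Aged over Young, of each member in oligodendrocyte-like cells (circles) and OPC-like cells (squares), with bars of 1 standard error on each side. OPC-like values of Mag, Cldn11, Mobp, Tspan2 and Opalin lie between −2.80 and −1.49, while oligodendrocyte-like values lie between −0.56 and +0.26.

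Whether the age change itself differed between the classes was then tested with a class-by-age term and the section as a block, a comparison added after seeing the data. Over 378 genes 20 passed (5.29%), 17 of them with the more negative change in OPC-like cells (4.5%). Among those were 4 members. The difference, OPC-like minus oligodendrocyte-like, was −2.54 ± 0.28 for Mag (edgeR adjusted p = 7.68e-16), −2.27 ± 0.28 for Cldn11 (3.66e-13), −2.15 ± 0.31 for Mobp (8.02e-10) and −1.38 ± 0.27 for Tspan2 (3.24e-05). Opalin had −1.08 ± 0.40 (edgeR adjusted p = 0.105), and Gatm, Mal and Trf had edgeR adjusted p = 0.233, 0.691 and 0.850. The edgeR test shares its error estimate over genes, and with 2 sections per age these adjusted p-values do not measure the spread between sections. With mixed cells kept, 0 members passed, with Mag at −0.64 and Cldn11 at −0.75 (edgeR adjusted p = 0.0684 and 0.0794). Without Aged 1 the Tspan2 difference did not pass (edgeR adjusted p = 0.166).

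White matter tracts and grey matter hold oligodendrocytes of different surroundings, and the members were compared between them within each section. White matter by the neighbour rule made up 3.66% and 3.78% of kept cells in the Young and 6.12% and 5.74% in the Aged sections. Relative to other genes, 7 of the 8 members were higher in white matter oligodendrocyte-like cells. The edgeR test with section as a block covered 359 genes, of which 146 (40.7%) passed in either direction and 72 (20.1%) were higher in white matter.

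Mal was 832, 827, 854 and 659 per 10000 in the white matter of Young 1, Young 2, Aged 1 and Aged 2, and 686, 687, 641 and 532 in their grey matter (log2 difference 0.60 ± 0.08, edgeR adjusted p = 3.14e-05). Cldn11 was 627, 675, 495 and 507 in white and 524, 535, 407 and 393 in grey matter (0.59 ± 0.07, edgeR adjusted p = 1.81e-05). Tspan2 was 701, 920, 641 and 545 in white and 579, 775, 542 and 465 in grey matter (0.53 ± 0.07, edgeR adjusted p = 3.53e-05). White matter was the higher zone in all 4 sections for each of the 3.

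Gatm differed by 0.46 ± 0.08 (edgeR adjusted p = 0.000506), Mobp by 0.32 ± 0.08 (0.00442), Opalin by 0.31 ± 0.08 (0.00549) and Trf by 0.25 ± 0.09 (0.0463), and Mag by 0.12 ± 0.07 (0.226). The Trf call was lost when any of the 4 sections was left out, and those of Mobp and Opalin without Aged 2. The direction of several members depended on the scaling. With plain transcript totals in place of the trimmed mean (TMM) factors the median of all genes moved by −0.28 and 136 of 359 genes passed, and of the 5 members among them 4 were higher (Mal 0.32, Cldn11 0.31, Tspan2 0.25 and Gatm 0.18) and Mag was lower, at −0.16 (edgeR adjusted p = 0.00363). With cell volume as the library size the median moved by −0.38 and 141 of 359 genes passed, and Mal, Cldn11 and Tspan2 were higher (0.22, 0.21 and 0.15) and Mag lower (−0.26). Mal, Cldn11 and Tspan2 were thus higher in white matter under all 3 scalings. By plain level Mag was lower in white matter in every section, at 443, 454, 419 and 366 against 490, 499, 464 and 428. With mixed cells kept, all 8 members passed, with 0.95 for Mag to 1.37 for Cldn11, in a fit that called 271 of 383 genes. Neuron markers summed to 30.04 to 35.6 per 10000 in white matter and 109 to 201 in grey matter oligodendrocyte-like cells, and their part in the zone differences was not tested. Depth differed too. In the same section order, the median was 227, 192, 130 and 170 transcripts per cell in white and 127, 118, 79 and 86 in grey matter. The part of depth, and of transcripts from neighbouring oligodendrocytes, was likewise not tested.

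**Figure D4:**
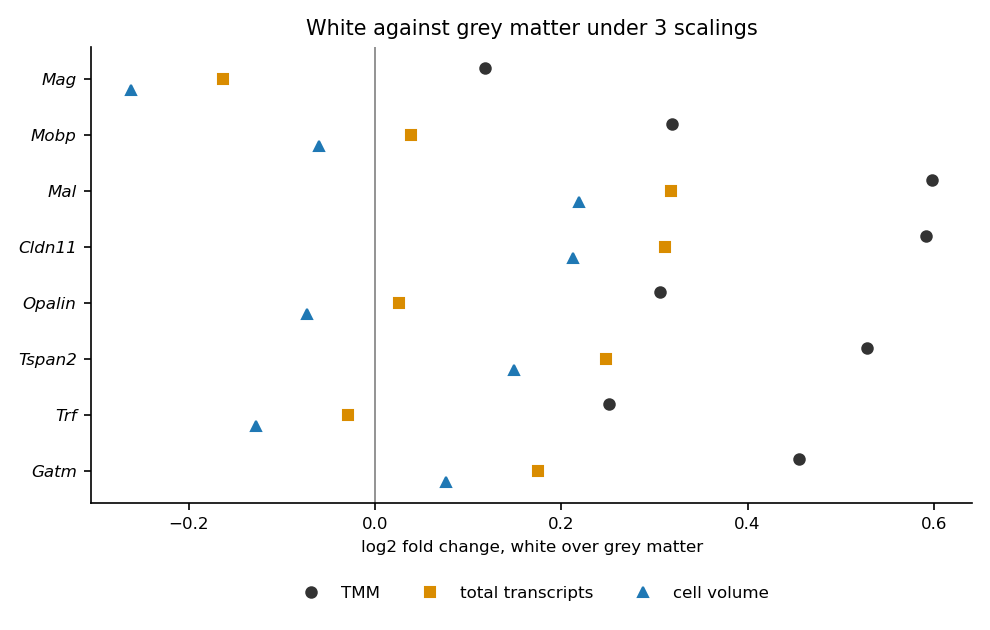
Fitted log2 fold change of each member, white over grey matter oligodendrocyte-like cells, under TMM factors (circles), plain transcript totals (squares) and cell volume (triangles). Mal, Cldn11, Tspan2 and Gatm are to the right of 0 under all 3, and Mag moves from 0.12 to −0.16 and −0.26.

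The plain levels were also followed over 5 steps of local oligodendrocyte density. Cldn11 was the only member that rose at every step in all 4 sections, and its level where over 60% of neighbours were oligodendrocyte-like was 1.23, 1.30, 1.25 and 1.33 times that where at most 10% were. The same ratio was 1.25, 1.23, 1.37 and 1.25 for Mal and 1.21, 1.17, 1.18 and 1.19 for Tspan2. For Mag it was 0.88, 0.90, 0.96 and 0.86. Trf ran in opposite directions at the 2 ages, with 0.90 and 0.90 in the Young and 1.24 and 1.12 in the Aged sections.

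**Figure D5:**
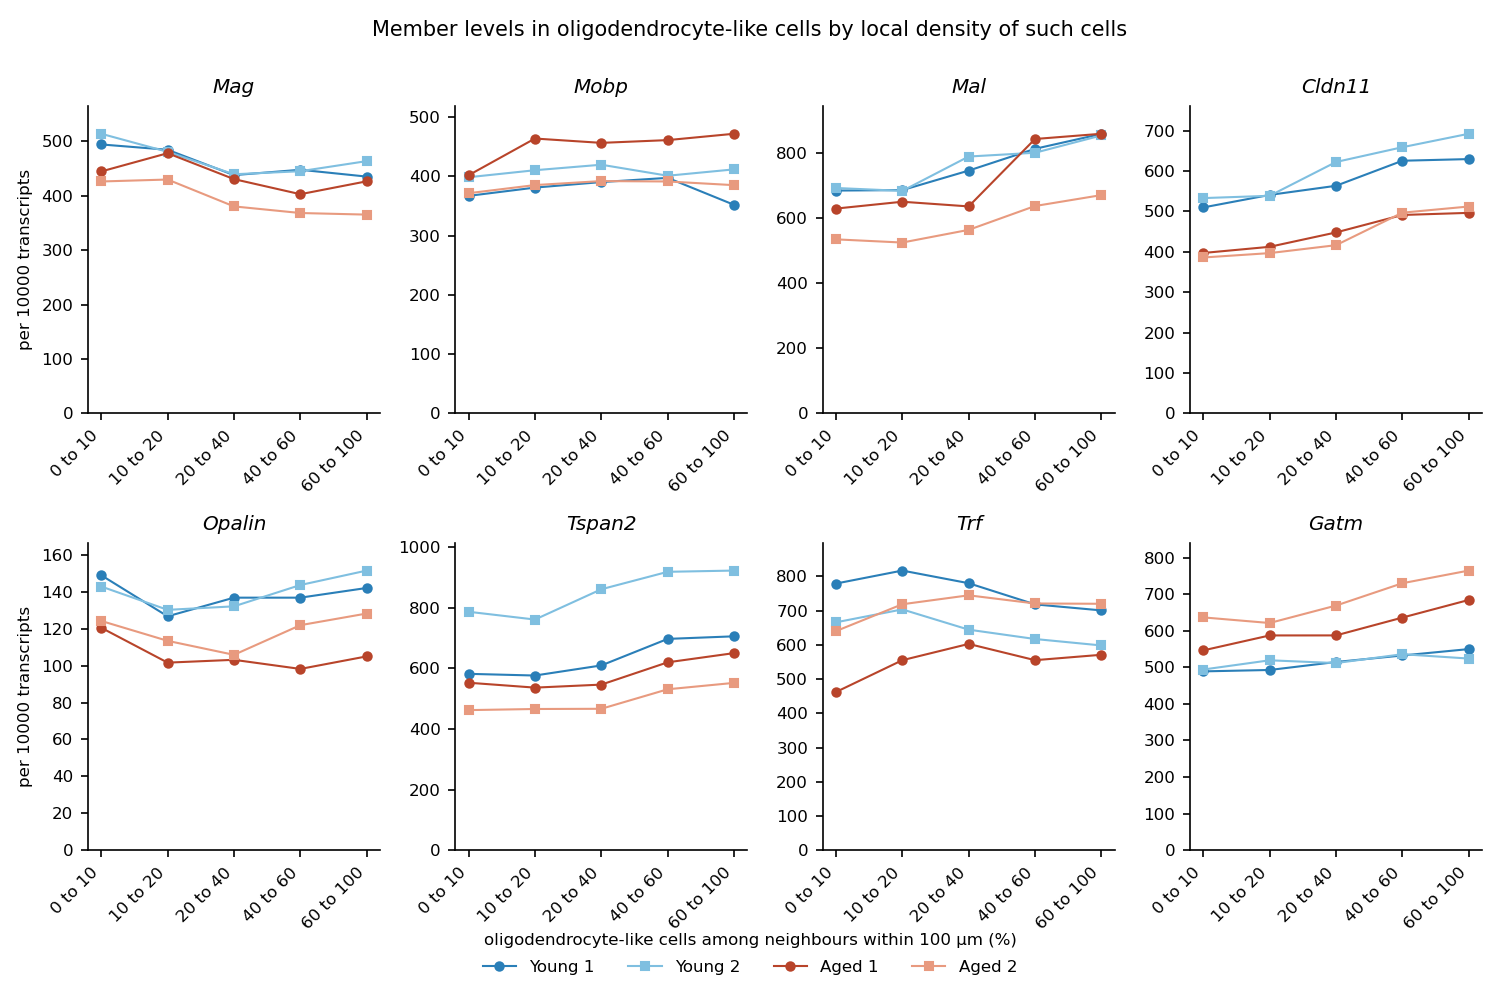
Level of each member per 10000 counted transcripts in oligodendrocyte-like cells against the percentage of oligodendrocyte-like cells among neighbours within 100 µm, in 5 bins, 1 line per section. Cldn11 rises along each line, Mag is lower in the last bin than in the first in all 4 sections, and the Trf lines of the Young and Aged sections slope differently.

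In neither zone did a member pass the age test, with 27 of 357 genes (7.56%) passing in white matter and 7 of 328 (2.13%) in grey matter. At an unadjusted p under 0.05 there were 3 members among 67 of 357 genes in white and 5 members among 68 of 328 genes in grey matter. DESeq2 called 0 members among 28 of 357 genes in white matter and 2 members among 11 of 328 genes in grey matter, both lower with age. Trf was 711 and 608 per 10000 in the Young and 566 and 720 in the Aged white matter, and 797 and 683 against 515 and 680 in grey matter. Gatm was 540 and 530 against 670 and 753 in white matter, and 490 and 506 against 571 and 628 in grey matter.

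The difference of the age change between zones passed for both of these genes. It was +0.46 ± 0.08 for Trf (edgeR adjusted p = 0.00366) and +0.33 ± 0.08 for Gatm (0.0177), meaning a more positive change in white matter, with 24 of 359 genes (6.69%) passing in either direction and 18 (5.01%) in this one. In plain levels Trf was lower in white than in grey matter in both Young sections and higher in both Aged ones. The estimate was positive for all 8 members and the median over all tested genes was 0.10. Both calls were lost with plain totals (edgeR adjusted p = 0.0531 for Trf and 0.169 for Gatm), without Young 2 (0.158 for both) and with mixed cells kept, and that of Gatm also without Young 1 or Aged 1. Other cells' markers moved in the same comparison. Neuron markers in grey matter oligodendrocyte-like cells summed to 115 and 109 per 10000 in the Young and 201 and 154 in the Aged sections, with 6 of 7 genes higher, and vascular markers to 8.48 and 6.40 against 12.9 and 14.0, with 7 of 7 higher. The part of these in the interaction was not tested.

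Over all kept cells, mixed ones included, Gatm rose with age. Its level was 40.8 and 40.05 per 10000 in the Young and 66.6 and 65.4 in the Aged sections (log2 fold change 0.75 ± 0.17, edgeR adjusted p = 0.0468), in a test where 5 of 383 genes (1.31%) passed, 4 of them higher (1.04%). The call was lost when any section was left out (edgeR adjusted p = 0.0927 to 0.779) and with plain totals (0.0615). The other 7 members did not pass, with estimates of 0.01 for Tspan2 to 0.47 for Mobp. Oligodendrocyte-like cells made up 9.21% and 8.85% of kept cells in the Young and 12.8% and 12.7% in the Aged sections. In such sums, more cells of a type and more RNA per cell cannot be told apart.

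In the other classes 0 members passed by edgeR. The tests called 13 of 371 genes (3.5%) in astrocyte-like cells, 5 of 330 (1.52%) in microglia-like cells and 0 of 383 in each of vascular-like, medium spiny neuron-like and neuron-like cells. At an unadjusted p under 0.05, Gatm had +0.49 in astrocyte-like, +0.81 in medium spiny neuron-like and +0.70 in neuron-like cells, Mal +0.77 in medium spiny neuron-like and Trf +0.66 in neuron-like cells, while Trf had −0.44 in microglia-like cells. By the same cut, 64 of 371 genes stood out in astrocyte-like and 75 of 330 in microglia-like cells. The numbers were 31 of 383 in medium spiny neuron-like and 19 of 383 in neuron-like cells. DESeq2 and limma likewise called 0 members in these classes.

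A list of 12 other lineage genes on the panel was counted in the same comparisons. These 12 were also the oligodendrocyte and OPC markers that named the clusters and set the mixed rule. Their levels in both classes were therefore shaped by that selection, and they are no independent frame. The shares over all tested genes are given with each comparison above. In oligodendrocyte-like cells 1 of 12 rose with age, the alarmin Il33 (+0.75, edgeR adjusted p = 0.0179). In OPC-like cells 3 of 12 fell, the deacetylase Sirt2 (−1.60), the ephrin Efnb3 (−1.08) and Gpr17 (−0.67; edgeR adjusted p = 0.00616, 0.0474 and 0.0193), and the list's median was −0.41. Between zones 9 of 12 were higher in white matter and 1 lower, with the largest differences for C1ql1 (1.42), Gpr17 (0.97), Pdgfra (0.89) and Dbndd2 (0.74). For the difference of the age change between zones 3 of 12 passed, Olig1 (+0.42), Il33 (+0.36) and Phldb1 (+0.33), with the sign that Trf and Gatm had. For the difference between OPC-like and oligodendrocyte-like cells 2 of 12 passed, Sirt2 (−1.06) and Dbndd2 (−0.82).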

How the data were processed

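The deposited files hold, per the file headers, whole-number counts of decoded transcripts for each segmented cell and gene. Per the labels, MERLIN was used for the first processing and Vizgen software for segmentation, from which come the deposited cell volumes, a signal in µm³, and positions taken as µm. The authors' table of mean signal per cell differed from the means of these counts by at most 4.7e-09 and was used only for that check. The first lines of both Young files carried another section label than the titles, and the titles were used.

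Kept cells were log-normalised and clustered without the 8 members (15 principal components, 20 neighbours, Louvain at resolution 0.08, python-igraph 0.11.9), and clusters were named from markers. Doublets were treated only through the rule on mixed cells. The members and all lists were chosen with earlier results of these data known. Counts were summed per section and class, or per section, class and zone, and tested with edgeR 4.0.16 (TMM factors, filterByExpr, quasi-likelihood test, Benjamini-Hochberg over all tested genes, threshold 0.05) in R 4.3.3. DESeq2 1.42.0 and limma 3.58.1 were alternatives, beside other scalings, filters, cluster and zone settings, a replicate block and leaving out each section. The split by precursor stage, the class-by-age term, a relaxed mixed rule and the crossed block were added after seeing the data. The named genes were the 8 members, the genes most like them and the largest changes of the lineage list. The scripts were tested on simulated data. Transcripts per section totalled 18765491 to 36035355 in kept cells. Fold changes of low counts are the least precise, and counting intervals cover counting error only.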

Additional observations from a re-analysis of the deposited data

Results flagged for a closer look

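In oligodendrocyte-like cells the age change differed between white and grey matter, by the interaction term of the edgeR fit, for 2 members. The difference, white minus grey matter, was 0.46 on the log2 scale for Trf and 0.33 for Gatm. Both calls were lost with plain totals and with mixed cells kept.

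The age change also differed between OPC-like and oligodendrocyte-like cells for 4 members, by the class-by-age term, but for 0 with mixed cells kept. The difference, OPC-like minus oligodendrocyte-like, was −2.54 for Mag, −2.27 for Cldn11, −2.15 for Mobp and −1.38 for Tspan2. These results were picked because the change in one setting differed from that in the other, and groups of 2 sections were too small for a check of single outlying sections.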

How the results depend on the processing

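Counts of members called are given first, then single genes that changed sign as log2 values. In oligodendrocyte-like cells the age comparison called 0 members, 2 with cell volume as the library size, and 0 to 1 when a section was left out. Mobp, at −0.01, turned to 0.10 with plain totals, 0.034 with mixed cells kept, 0.13 with a stricter mixed rule and 0.0032 with the relaxed one, and ran from −0.10 to 0.16 over the left-out sections. Gatm turned to −0.24 with cell volume, and in white and grey matter to −0.20 and −0.30. In OPC-like cells 5 members were called, 3 with mixed cells kept, 1 in Pdgfra-led cells and 4 when any single section was left out. Trf turned to 0.34 in the striatum alone, 0.18 with the relaxed mixed rule and 0.42 in Pdgfra-led cells, where Gatm was at 0.075. Over all kept cells the 1 call, Gatm, became 0 with plain totals, with the members left out of the library size, with cell volume, with at least 30 genes per cell, in the striatum and whichever section was left out (0 to 0). The cause was not tested.

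By zone, the age comparison of white matter called 2 members with cell volume and 1 with mixed cells kept, and Trf turned to 0.0084 with zone thresholds of 50% and 15% and ran from −0.25 to 0.093 over the left-out sections. That of grey matter called 2 with DESeq2, 1 with at least 30 genes per cell and 2 with the other zone thresholds. White against grey matter called 7 members, 4 with cell volume and 4 to 6 over the left-out sections. With cell volume Mobp was at −0.060, Opalin at −0.073, Trf at −0.13 and Mag at −0.26, and with plain totals Trf was at −0.029 and Mag at −0.16. The zone-by-age term called 2 members, 0 with plain totals or mixed cells kept, 1 with cell volume or the other zone thresholds, 4 at cluster resolution 0.3, 5 with the members left out of the library size, and 0 to 6 over the left-out sections. The class-by-age term called 4 members and 0 with mixed cells kept, where Mal was at 0.092, Opalin at 0.15 and Trf at 0.063. Trf there also turned to 0.068 with cell volume, 0.66 in the striatum and 0.46 with the relaxed mixed rule.

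The replicate numbers pair the sections only by name. The correlation of same-numbered sections' deviations was −0.06 in oligodendrocyte-like cells, 0.07 in OPC-like cells and −0.21 over all kept cells. With the replicate block the age comparison called 0 members in oligodendrocyte-like cells, 4 in OPC-like cells and 1 over all kept cells, and 0 in every other class and zone. With the numbers crossed it called 0, 3 and 1. The OPC-like values rest on 305 to 434 cells per section with a median of 51 to 61 transcripts each.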
